A study of Mus musculus with 38 samples.

Results

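The livers of 3 male CD-1 mice fed propiconazole for 30 days were set against those of 3 males on control feed of the same experiment and time. These 6 arrays were chosen by their titles from the 38 of the series, each of which holds total RNA of 1 liver on an Affymetrix whole-genome mouse array. The age given for the mice was 6 to 8 weeks, the same for groups fed for 4 and for 30 days. It is therefore not taken as the age when the livers were collected. The mice were of an outbred stock, and the labels call the animals biological replicates. Propiconazole was given in the feed at 2500 ppm, for a mean daily intake of 349.6 ± 46.7 mg/kg. The treated livers were also compared with 3 livers after 30 days of triadimefon at 1800 ppm, which share the same controls, with 3 after 4 days of propiconazole and 3 controls of that time, and with 5 after 30 days of phenobarbital at 850 ppm and 5 controls of its own experiment. No genetic change was carried by any group. The study's title poses the question of how tumorigenic triazole fungicides differ from phenobarbital in liver transcription.

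Propiconazole is a triazole fungicide, made to block the fungal sterol demethylase CYP51. Rodent liver meets many such lipophilic chemicals through the nuclear receptors CAR and PXR, which switch on cytochrome P450 enzymes for oxidation, transferases for conjugation and transporters for export. Phenobarbital is the reference activator of CAR. A separate regulator, the pulsed male or steadier female release of growth hormone, sets many P450 and steroid enzymes at different levels in the livers of males and females.

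A level is log2(intensity + 16) after quantile normalization of all 38 arrays, so 4 is the lowest possible value and a difference of 1 is a doubling of intensity + 16. Levels below 6.15, the level that 95% of 38 olfactory receptor genes stay under in their means, are called background. A change is the mean of 3 treated livers minus the mean of 3 controls, tested with limma on all 38 arrays and called where p, adjusted by Benjamini-Hochberg over 17729 genes, was under 0.05. Where a group lay under background on all its arrays, the ratio is given as "at least". Log2 differences of such genes depend on the pseudocount, also where changes are set against each other. Probe sets of close paralogs can share signal, which touches the Cyp2b, Cyp2c, Gstm and Orm families below.

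The 6 arrays had median intensities of 26.2 to 34.5 and no excess of Gapdh 3′ signal, the 3′ minus 5′ difference lying between -0.10 and 0.00. For Actb that difference was 0.35 to 0.47. Arrays correlated at 0.95 to 0.970 within the groups and at 0.913 to 0.926 between them. The first principal component, with 49.5% of the variance, separated treated from control livers. The summed intensity of 8 hepatocyte markers ran from 61484 to 64079 in controls and from 55014 to 61942 in treated livers, so all 6 arrays carried hepatocyte signal. None of the 8 was called, 1 of the 8 differences was positive, and Alb differed by 0.01 (adjusted p = 1.0).

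Propiconazole changed 1917 genes, 10.8% of those tested, of which 937 were higher (5.29%) and 980 lower (5.53%). Among the higher genes the median change was 0.85 and 61 rose by at least 2. Among the lower genes the median was -0.77 and 45 fell by at least 2. Levels did not overlap between the groups in 834 of the higher and 862 of the lower genes, against 24.4% of all genes tested. The count was 1277 without control replicate 3 and 541 when only the 6 arrays were fitted. It was 2803 without day 4 propiconazole replicate 2, an array outside this comparison that shares in the error estimate and has a large 3′ excess. With each of the 6 arrays left out in turn, 703 genes (355 higher and 348 lower) were called every time. Unless a paragraph says otherwise, the genes named below as changed kept their call every time. Of 170 called genes that the naming rule picked, 87 were also called in the fit on 6 arrays. Those described below that missed the threshold there, at adjusted p from 0.053 to 0.33, were Alas1, Arnt, Axin2, Blvra, C9, Cbr3, Cd36, Cpox, Cyp3a16, Cyp3a44, Epcam, Ern1, Fas, Hlf, Hsd3b5, Lrat, Mdm2, Oat, Psma1, Rdh16f2, Rnf43, S100a8, Tlr4 and Uros. The counts of lists are those of the fit on 38 arrays. They are to be read beside the shares of all genes tested, 5.29% higher and 5.53% lower.

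The largest rises were in a small set of P450 genes that untreated male liver barely expresses. Cyp2c65 read 4.24, 4.00 and 4.00 in control replicates 1 to 3 and 10.25, 10.65 and 9.72 in the treated livers, at least 16.6-fold higher (adjusted p = 8.1e-12). Cyp2c55 went from 6.46, 5.95 and 7.86 to 12.69, 12.84 and 12.74, a change of 6.00 ± 0.32 (SE, adjusted p = 2.7e-14). Cyp2b10, the classical CAR target of mouse liver, read 6.44, 5.84 and 9.05 in controls and 13.03, 13.05 and 13.07 in treated livers, a change of 5.94 ± 0.45 (adjusted p = 1.5e-10). The treated livers were within 0.02 (SD) of each other for Cyp2b10, at levels close to the highest value of any gene, 13.71. Control replicate 3 stood far above the other controls. Without that control the change of Cyp2b10 was 6.91.

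**Figure D1:**
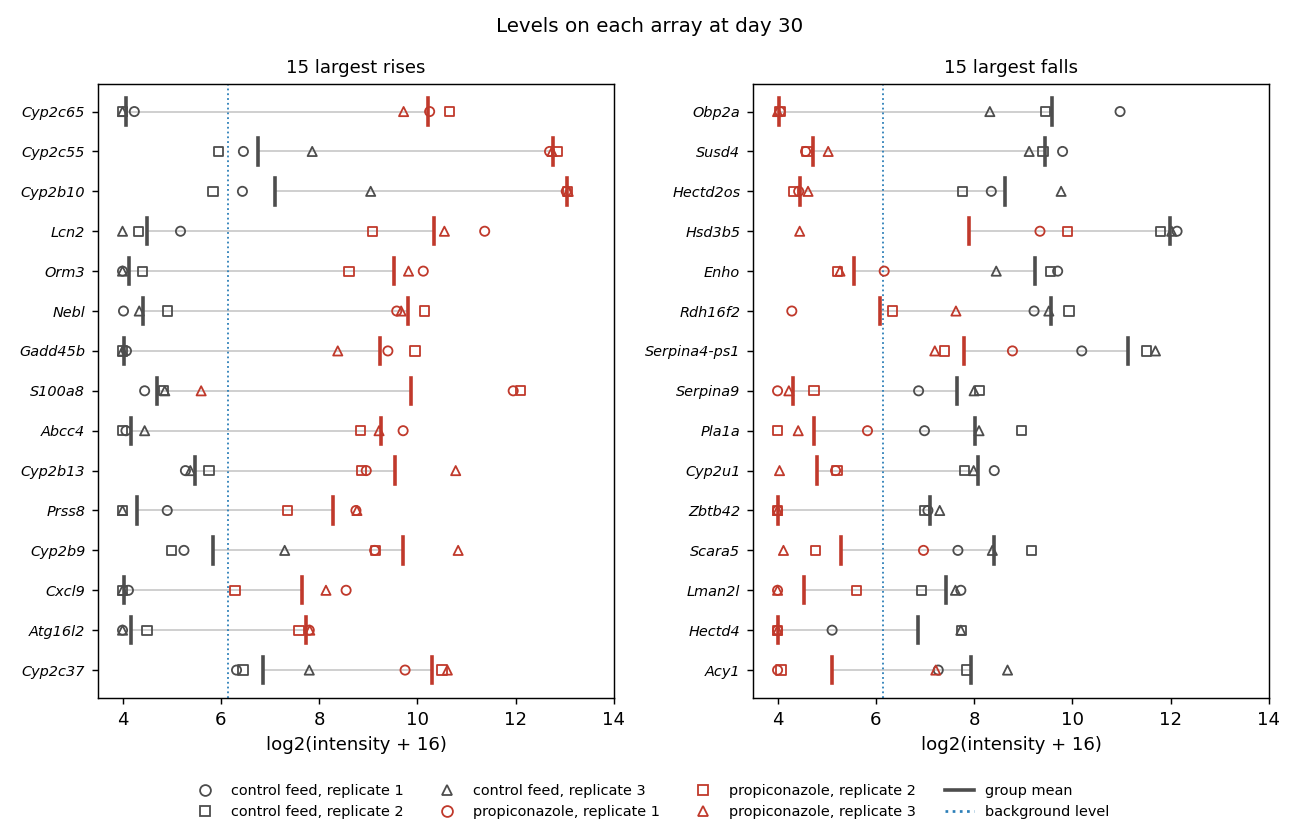
Level of log2(intensity + 16) on each of the 6 arrays for the called genes without overlap of the groups that rose (15) or fell (15) most. Grey is control feed, red is propiconazole, symbols give the replicate number, short bars are group means, and the dotted line is the background level of 6.15. Many genes that rose were under background in every control liver, and S100a8 and Hsd3b5 each have treated replicate 3 far from the other treated livers.

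The Cyp2b13 and Cyp2b9 genes, whose products are female-predominant P450 enzymes, rose together. Cyp2b13 read 5.28, 5.76 and 5.38 in controls and 8.96, 8.87 and 10.78 after propiconazole, at least 10.5-fold higher (adjusted p = 1.5e-05). Cyp2b9 read 5.25, 5.0 and 7.30 in controls and 9.13, 9.15 and 10.83 in treated livers, a change of 3.85 ± 0.69 (adjusted p = 0.00039). In both genes the treated replicates 1 and 2 were nearly equal and replicate 3 was higher. The 250 bases before the starts of these genes are shown, as RefSeq gives them on build GRCm38.p6, because the pair is nearly the same in sequence, with the nuclear receptor binding motif AGGTCA in capitals. Cyp2b13 lies at chr7:26061245-26061494, Cyp2b9 at chr7:26173159-26173408 and Cyp2b10 at chr7:25897408-25897657, all on the plus strand and upstream of the annotated start.
Cyp2b13: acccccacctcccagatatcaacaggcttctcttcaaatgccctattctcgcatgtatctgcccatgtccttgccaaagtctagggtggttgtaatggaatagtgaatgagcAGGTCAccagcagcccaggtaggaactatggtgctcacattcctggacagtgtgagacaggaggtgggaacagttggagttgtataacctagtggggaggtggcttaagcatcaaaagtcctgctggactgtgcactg
Cyp2b9: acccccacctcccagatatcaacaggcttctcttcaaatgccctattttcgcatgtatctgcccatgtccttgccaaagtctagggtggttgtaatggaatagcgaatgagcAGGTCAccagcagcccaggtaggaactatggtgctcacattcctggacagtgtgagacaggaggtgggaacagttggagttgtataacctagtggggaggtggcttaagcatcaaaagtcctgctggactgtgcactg
Cyp2b10: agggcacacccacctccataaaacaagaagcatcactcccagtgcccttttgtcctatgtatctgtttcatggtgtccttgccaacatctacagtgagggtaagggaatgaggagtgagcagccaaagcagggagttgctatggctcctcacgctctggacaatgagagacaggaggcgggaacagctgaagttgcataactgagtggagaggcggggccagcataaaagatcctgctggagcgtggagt
The windows of Cyp2b13 and Cyp2b9 matched at 248 of 250 bases (99.2%), and each held AGGTCA 138 bases before the start. The Cyp2b10 window held no such motif. Position by position, without alignment, it matched Cyp2b9 at 26.4% of bases. An inserted or missing base shifts such a count, so it does not measure how alike these windows are. The match is of upstream bases, which the array does not read. Whether probes in this family read more than 1 gene was not tested. AGGTCA on either strand occurred in 12.3% of 17712 promoter windows of this length. It occurred in 7 of the 42 windows of 36 higher genes of the drug metabolism, transport and NRF2 lists. Cyp2b13 and Cyp2b9 are both among those 7.

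Of the 4 CYP2B genes measured, 3 rose and the other was not called. Among 10 CYP2C genes, 5 rose (Cyp2c37, Cyp2c50, Cyp2c54, Cyp2c55 and Cyp2c65) and 1 fell. Cyp2c37 read 6.32, 6.45 and 7.80 in controls and 9.75, 10.50 and 10.61 in treated livers, a change of 3.43 ± 0.48 (adjusted p = 1.9e-05). Cyp2c54 and Cyp2c50 began high and rose by 1.37 and 0.62. Cyp2c68 went the other way, from 12, 11.71 and 11.80 to 10.69, 11.17 and 10.50, a change of -1.05 ± 0.19 (adjusted p = 0.00054). Cyp3a44 rose by 1.02 (adjusted p = 0.0059), but not with the 6 arrays alone (0.074). Cyp3a16 was also called, at under background in both groups, and its call was lost without control replicate 1 (0.89, adjusted p = 0.068), control replicate 2 (0.72, 0.14) or treated replicate 3 (0.59, 0.20).

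The P450 genes with the highest constitutive levels did not pass the test. Cyp3a11, the main PXR target among the CYP3A genes, read 13.10, 13.09 and 13.01 in controls and 13.18, 13.14 and 13.10 in treated livers (adjusted p = 0.33). Cyp2c29 differed by 0.14 (adjusted p = 0.062), Cyp2e1 by -0.11 (0.084) and Cyp2d9 by 0.00 (1.0). By control mean, Cyp3a11 ranked 53 and Cyp2e1 19 among 17729 genes, close to the highest value of any gene, 13.71.

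Genes of the aryl hydrocarbon receptor pathway gave a mixed picture. Ahr, the receptor, rose from 8.99, 8.77 and 8.85 to 9.59, 10.03 and 9.98, a change of 1.0 ± 0.19 (adjusted p = 0.0007). Its best known targets did not pass: Cyp1a1 differed by -0.04 (adjusted p = 0.98) and Cyp1a2 by 0.50 (0.063). Arnt, the receptor's partner, was called at 0.62 on its brightest probe set, but the mean of all its probe sets gave -0.18.

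Among the reductases and hydrolases that work beside P450 enzymes, 6 of 17 rose and 3 fell, of which 5 and 1 were kept with each array left out. Cbr1, a carbonyl reductase, read 9.15, 9.56 and 9.59 in controls and 10.84, 10.75 and 11.04 in treated livers, a change of 1.44 ± 0.22 (adjusted p = 6.6e-05). Its relative Cbr3 rose from 4.00, 4.00 and 4.45 to 8.58, 6.73 and 5.83 (adjusted p = 0.00099), with treated replicate 1 the highest and replicate 3 under background, and it was not called with the 6 arrays alone (0.064). Aldh1a7, an aldehyde dehydrogenase, rose by 1.25 and Ephx1, the microsomal epoxide hydrolase, by 0.73, while Ephx2, the soluble one, fell by 0.56.

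Conjugating enzymes rose more than they fell. Of 20 glutathione S-transferases 6 rose (30%) and none fell, and of 12 genes of glucuronidation 3 rose (25%) and 1 fell (8.33%). Of 11 genes of sulfation 4 rose (36.4%) and 1 fell (9.09%), and of 9 carboxylesterases 4 rose (44.4%) and none fell. With each array left out, 4 of the glutathione S-transferases, 2 of the glucuronidation genes and 3 of the sulfation genes that rose kept their call. Neither of the falls did. Of the carboxylesterases 2 were called without control replicate 2 or treated replicate 3. Gstm3 went from 11.57, 11.22 and 11.57 to 13.23, 13.29 and 13.34, a change of 1.83 ± 0.15 (adjusted p = 1.6e-09). Gstt3 went from 7.38, 7.4 and 9.59 to 11.09, 11.08 and 11.55, a change of 3.11 ± 0.46 (adjusted p = 4.6e-05). Control replicate 3 again stood above the other controls for Gstt3, and without it the change was 3.85. Gstm2 rose by 2.17 and Gstm4 by 1.39.

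Sult1c2 rose from 6.10, 5.86 and 6.00 to 8.74, 9.13 and 8.50, at least 6.22-fold higher (adjusted p = 1.7e-06). Sult2a2, a hydroxysteroid sulfotransferase higher in female liver, read 4.10, 4.00 and 4.36 in controls and 5.82, 7.0 and 8.08 in treated livers (adjusted p = 0.00029). Its treated levels were the most spread of the sulfotransferases that rose, with replicate 1 under background. Ugdh, which makes the glucuronic acid donor, rose by 0.88 (adjusted p = 0.0034), Ugt2b34 by 0.63 and the carboxylesterase Ces2a by 0.88 (adjusted p = 2.2e-08).

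**Figure D2:**
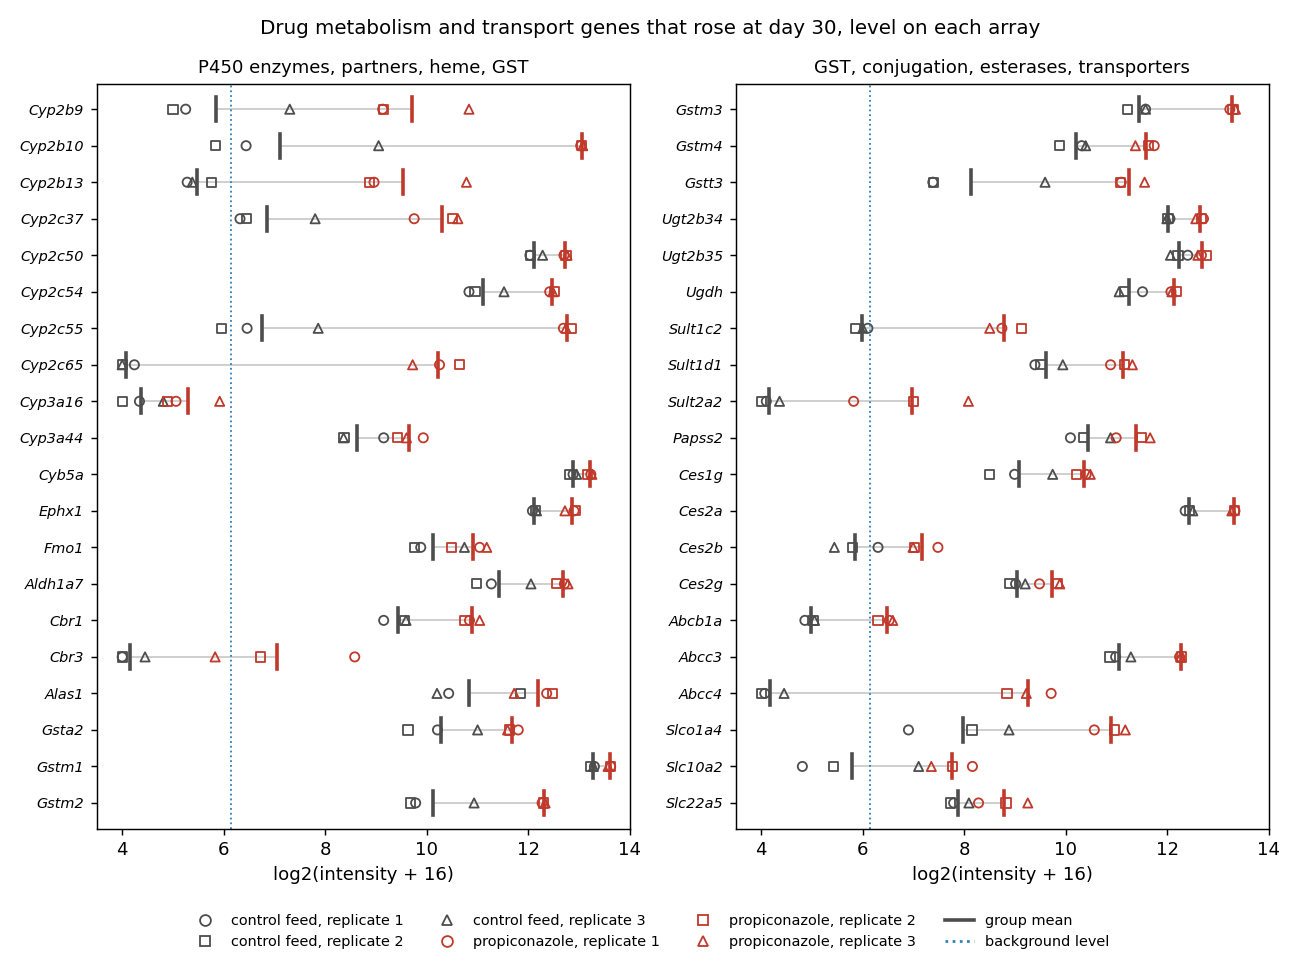
Level of log2(intensity + 16) on each array for the 40 genes of the drug metabolism, heme and transport lists that rose. Grey symbols are control livers, red symbols treated livers, short bars group means, and the dotted line is background. Control replicate 3, the grey triangle, is the highest control for 30 of the 40 genes.

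Of 12 ABC efflux transporters 3 rose (25%) and none fell, and 5 of the 12 differences were positive. Abcc4, an efflux pump for conjugates and nucleotides, went from 4.07, 4.00 and 4.45 to 9.71, 8.84 and 9.22, at least 8.61-fold higher (adjusted p = 1.8e-07). Abcc3, which carries glucuronides back to the blood, rose from 10.98, 10.87 and 11.28 to 12.24, 12.28 and 12.26, a change of 1.22 ± 0.16 (adjusted p = 6e-06). Abcb1a, a P-glycoprotein gene, rose at least 1.25-fold (adjusted p = 0.00015). Abcb11, the bile salt pump, differed by -0.20 (0.43).

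Of 11 uptake transporters 3 rose and 1 fell, of which 2 and 1 were kept with each array left out. Slco1a4 read 6.90, 8.15 and 8.88 in controls and 10.56, 10.95 and 11.17 in treated livers, a change of 2.92 ± 0.58 (adjusted p = 0.0012). Slc22a7, an organic anion transporter, fell from 10.31, 10.37 and 10.48 to 8.68, 8.35 and 7.55, a change of -2.19 ± 0.51 (adjusted p = 0.0046).

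Of 18 genes known to respond to NRF2, the sensor of electrophiles, 6 rose, none fell, and 17 had a positive difference. With each array left out, 4 of the 6 kept their call. Nqo1, a quinone reductase, rose from 4.26, 4.45 and 5.34 to 7.21, 6.08 and 7.01 (adjusted p = 0.00062). Gclc, the catalytic subunit of glutathione synthesis, differed by 0.04 (1.0). Abcc4 is shown for this list, with a match to TGACNNNGC, the core of the antioxidant response element, in capitals 23 bases before one of its annotated starts (chr14:118676932-118677181, minus strand).
Abcc4: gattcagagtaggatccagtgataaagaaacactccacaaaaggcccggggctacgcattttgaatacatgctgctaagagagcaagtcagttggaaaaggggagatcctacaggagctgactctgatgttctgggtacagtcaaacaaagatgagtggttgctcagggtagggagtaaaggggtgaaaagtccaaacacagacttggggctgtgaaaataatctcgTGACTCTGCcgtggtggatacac
Another annotated Abcc4 start also held the core, 25 bases before it. The core occurred in 11.5% of the 17712 windows. It occurred in 3 of the 42 windows of the 36 higher genes of the drug metabolism, transport and NRF2 lists, which belong to 2 genes.

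The sensor receptors themselves did not rise. Nr1i3, the gene of CAR, read 9.94, 8.95 and 9.33 in controls and 7.69, 7.73 and 8.26 in treated livers, a difference of -1.51 that did not pass (adjusted p = 0.097) although the groups did not overlap. Nr1i2, the gene of PXR, differed by 0.11 (0.90). Of 25 liver nuclear receptor and coregulator genes, none rose and 3 were called lower, none of which kept its call with each array left out. Ppara, the fatty acid receptor, was one, at -1.13 (adjusted p = 0.023), losing the call without control replicate 1 (-1.09, 0.066), control replicate 3 (-1.12, 0.063), treated replicate 1 (-1.11, 0.054) or treated replicate 2 (-0.99, 0.095).

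Heme is the cofactor of every P450. Of 12 genes of its synthesis and breakdown 1, Alas1, was called higher, 3 were lower, and 6 of the 12 differences were positive. Alas1, its rate-limiting enzyme, read 10.43, 11.85 and 10.20 in controls and 12.36, 12.48 and 11.72 in treated livers, a change of 1.36 ± 0.43 (adjusted p = 0.039). Control replicate 2 overlapped the treated range, and the call was lost without control replicate 1 (1.16, 0.14), control replicate 3 (1.04, 0.19), treated replicate 1 (1.27, 0.10) or treated replicate 2 (1.21, 0.13). Cpox and Uros, later enzymes of synthesis, were called lower, Cpox from 11.27, 11.14 and 11 to 9.65, 10.68 and 10.02 (-1.02, adjusted p = 0.0022), and Uros from 8.94, 8.67 and 8.78 to 8.02, 7.15 and 8.43 (-0.93, 0.0011). Neither was called with the 6 arrays alone (adjusted p = 0.073 and 0.16), nor Uros with the mean of all probe sets (-0.39, 0.15). Blvra, biliverdin reductase, was the other (-0.72, adjusted p = 0.043), lost without control replicate 1 (-0.66, 0.12), control replicate 3 (-0.64, 0.15) or treated replicate 2 (-0.29, 0.44).

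Genes with sex-biased levels in mouse liver were called in opposite directions by list. Of 16 male-biased genes 6 fell and none rose, and of 21 female-biased genes 9 rose and 1 fell. Those 9 include Cyp2b9, Cyp2b10, Cyp2b13, Cyp3a16, Cyp3a44, Sult2a2 and Abcc4, given above among drug metabolism and transport genes. With each array left out, 5 of the male-biased falls and 7 of the female-biased rises kept their call. The female-biased fall did not. Above background on any of the 6 arrays were 16 of the male-biased and 14 of the female-biased genes. Susd4, which encodes a complement regulator, dropped from 9.80, 9.40 and 9.12 to 4.57, 4.60 and 5.03, at least 9.77-fold lower (adjusted p = 3.2e-08). Cyp2u1 fell from 8.41, 7.81 and 7.99 to 5.18, 5.21 and 4.04, at least 3.77-fold (adjusted p = 7.4e-06). Hsd3b5, a male-specific steroid enzyme, read 12.13, 11.80 and 12.02 in controls and 9.34, 9.90 and 4.45 in treated livers (-4.09, adjusted p = 0.00071). Treated replicate 3 carried much of that difference, since without it the change was -2.36 (adjusted p = 0.0048). With only the 6 arrays fitted Hsd3b5 was not called (adjusted p = 0.15).

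Treated replicate 3 was also the highest treated liver for 6 of the 9 female-biased genes that rose, against 5280 of 17729 genes tested (29.8%). That order was not particular to sex-biased genes. The same liver was highest for 21 of the 40 drug metabolism, heme and transport genes that rose (52.5%). It was also highest for 42 of the 73 genes of those lists that were not called (57.5%). Sult1e1, a female-predominant estrogen sulfotransferase, was at 4.00 in every liver but treated replicate 3, where it read 6.00, still under background. Prom1 rose from 5.59, 4.48 and 4.93 to 8.69, 7.11 and 9.39 (adjusted p = 0.00095). The male-typical genes Cyp2d9 (0.00, adjusted p = 1.0) and Slco1a1 (-0.19, 0.60) were not called. Neither were Stat5b (0.05, 0.95), the growth hormone signal transducer, Igf1 (-0.35, 0.077), or Socs2 (-1.17, 0.47), whose treated levels of 10.40, 7.25 and 6.00 spanned the control range.

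**Figure D3:**
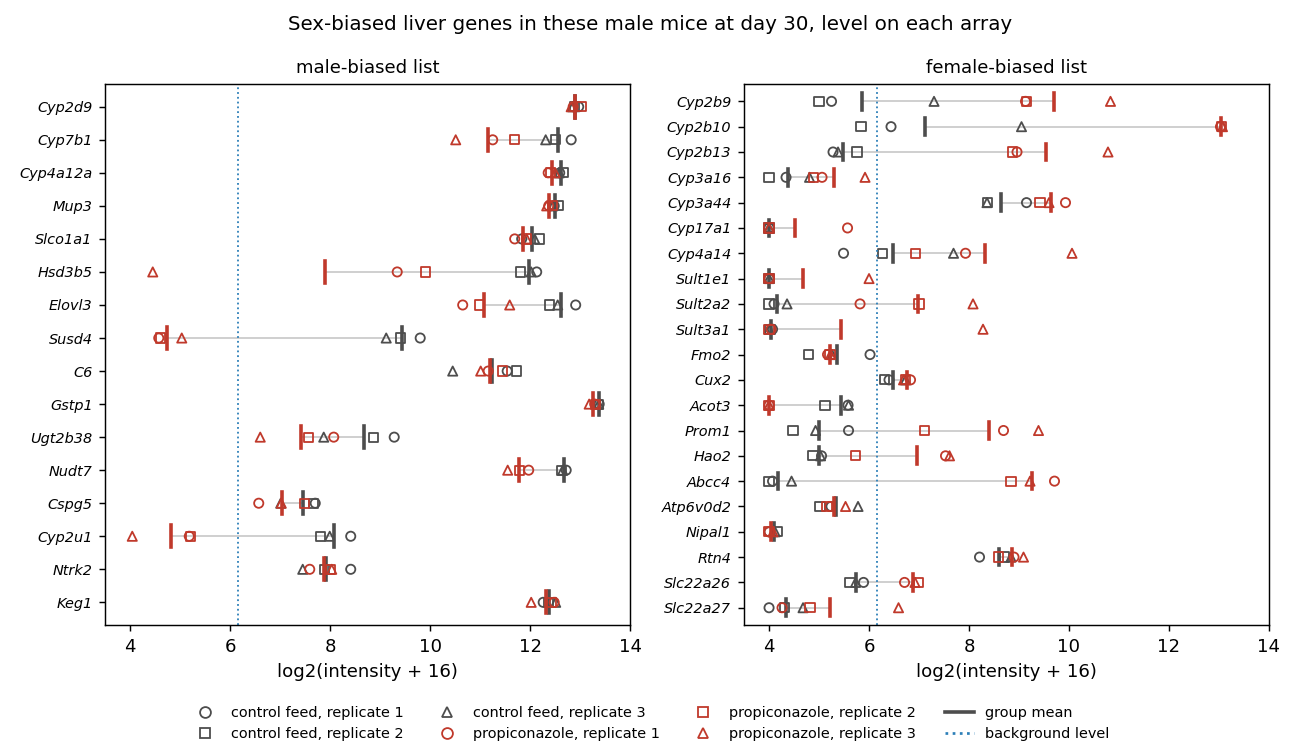
Level of log2(intensity + 16) on each array for the 16 male-biased (left) and 21 female-biased (right) genes measured in these male livers. Grey is control feed, red is propiconazole, short bars are group means, and the dotted line is background. The red triangle, treated replicate 3, lies lowest for Hsd3b5 and highest for Cyp2b13, Cyp2b9, Sult2a2 and Sult1e1. Sult1e1 was under background in every liver.

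The other large falls were in genes of varied function. Obp2a, an odorant-binding lipocalin, read 10.97, 9.46 and 8.32 in controls and 4.05, 4.05 and 4.00 in treated livers, at least 10.8-fold lower (adjusted p = 1.9e-05). Enho, the gene of the peptide adropin, fell from 9.70, 9.56 and 8.45 to 6.17, 5.22 and 5.27 (-3.68, adjusted p = 6.2e-05). Serpina9 fell from 6.87, 8.11 and 8.00 to 4.00, 4.74 and 4.23, and Pla1a, a phosphatidylserine lipase, from 6.99, 8.96 and 8.10 to 5.83, 4.00 and 4.42. In all 4 genes the treated livers were at or close to background and every control was above it. Rdh16f2, a retinol dehydrogenase, fell from 9.22, 9.93 and 9.52 to 4.29, 6.34 and 7.63 (adjusted p = 0.00021), with treated replicate 1 the lowest, and was not called with the 6 arrays alone (0.060).

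Pericentral genes, which mark the hepatocytes around the central vein and answer to WNT signals, fell in part. Of 20 measured, 6 fell and 1, Ahr, rose. Avpr1a, a vasopressin receptor, went from 9.45, 9.44 and 9.25 to 7.43, 8.08 and 7.81 (-1.61 ± 0.24, adjusted p = 4.4e-05), and Notum, a secreted WNT inhibitor, from 9.52, 9.51 and 9.28 to 7.26, 8.37 and 7.53 (-1.72 ± 0.30, 0.00036). Oat, ornithine aminotransferase, fell by 1.53 and Rnf43, a WNT receptor ligase, at least 1.31-fold, but neither was called with the 6 arrays alone (adjusted p = 0.077 and 0.06). Glul, glutamine synthetase, fell from 11.74, 11.59 and 11.47 to 10.89, 11.02 and 10.97 (-0.64, adjusted p = 0.012), a call lost without control replicate 1 (-0.57, 0.057). Axin2, a WNT target, fell at least 1.23-fold (adjusted p = 0.0081), a call lost without treated replicate 3 (-1.48, 0.059), whereas Lgr5 differed by -0.40 (0.29). In bulk liver, fewer cells of a type and less RNA per cell cannot be told apart.

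Genes of the periportal zone and urea cycle also fell, 5 of 17 and none rising, with 3 called without control replicate 2, control replicate 3, treated replicate 1 or treated replicate 2. Hal, histidine ammonia lyase, went from 11.44, 11.79 and 11.61 to 10.56, 10.76 and 11.01 (-0.84 ± 0.18, adjusted p = 0.0025), and Arg1, the last enzyme of the urea cycle, from 12.70, 12.70 and 12.61 to 12.27, 12.21 and 12.27 (-0.42 ± 0.07, 0.00022). Cps1 (-0.15, adjusted p = 0.21) and Otc (-0.17, 0.19), which begin the cycle, were not called. Of 22 genes of glucose production and insulin response 4 fell (2 without treated replicate 1) and none rose, among them Ldha, lactate dehydrogenase A, by 0.60 (adjusted p = 0.0024). Pck1, which commits carbon to glucose, differed by -0.83 (0.068).

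Of 38 genes of fatty acid and triglyceride synthesis 6 rose and 3 fell. The 6 became 2 without control replicate 1 and 3 without treated replicate 3, and the 3 became 1 without control replicate 1, control replicate 3, treated replicate 1 or treated replicate 2. Elovl6, the elongase of saturated fatty acids, rose from 8.77, 9.04 and 8.86 to 10.96, 10.95 and 11.56 (2.27 ± 0.33, adjusted p = 4.4e-05), and Cd36, a fatty acid translocase, from 6.32, 6.51 and 6.10 to 9.37, 7.20 and 9.29 (2.31 ± 0.51, 0.0029), the latter not called with the 6 arrays alone (0.076). Agpat2, which builds phosphatidic acid, fell by 0.86 (adjusted p = 0.0012). Of 32 PPAR-alpha targets and oxidation genes 1 rose and 3 fell, near the background shares of 5.29% and 5.53%, and none kept its call with each array left out.

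Cholesterol synthesis was little changed by count, with 1 of 24 genes higher and 1 lower, and 3 of the 24 differences positive. Cyp51, the mammalian form of the fungicide's target, read 9.85, 10.31 and 10.48 in controls and 9.76, 9.45 and 9.30 in treated livers, a difference of -0.71 that missed the threshold (adjusted p = 0.060). In bile acid synthesis 1 of 15 genes rose, Akr1d1, a steroid reductase, by 1.0 (adjusted p = 0.0014), and 3 fell, including Amacr, a racemase of side chain shortening, by 0.59 (0.0025). Cyp7a1, the rate-limiting enzyme, read 10.96, 10.22 and 11.06 in controls and 8.96, 9.72 and 9.36 in treated livers, without overlap, and did not pass (-1.40, adjusted p = 0.097).

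**Figure D4:**
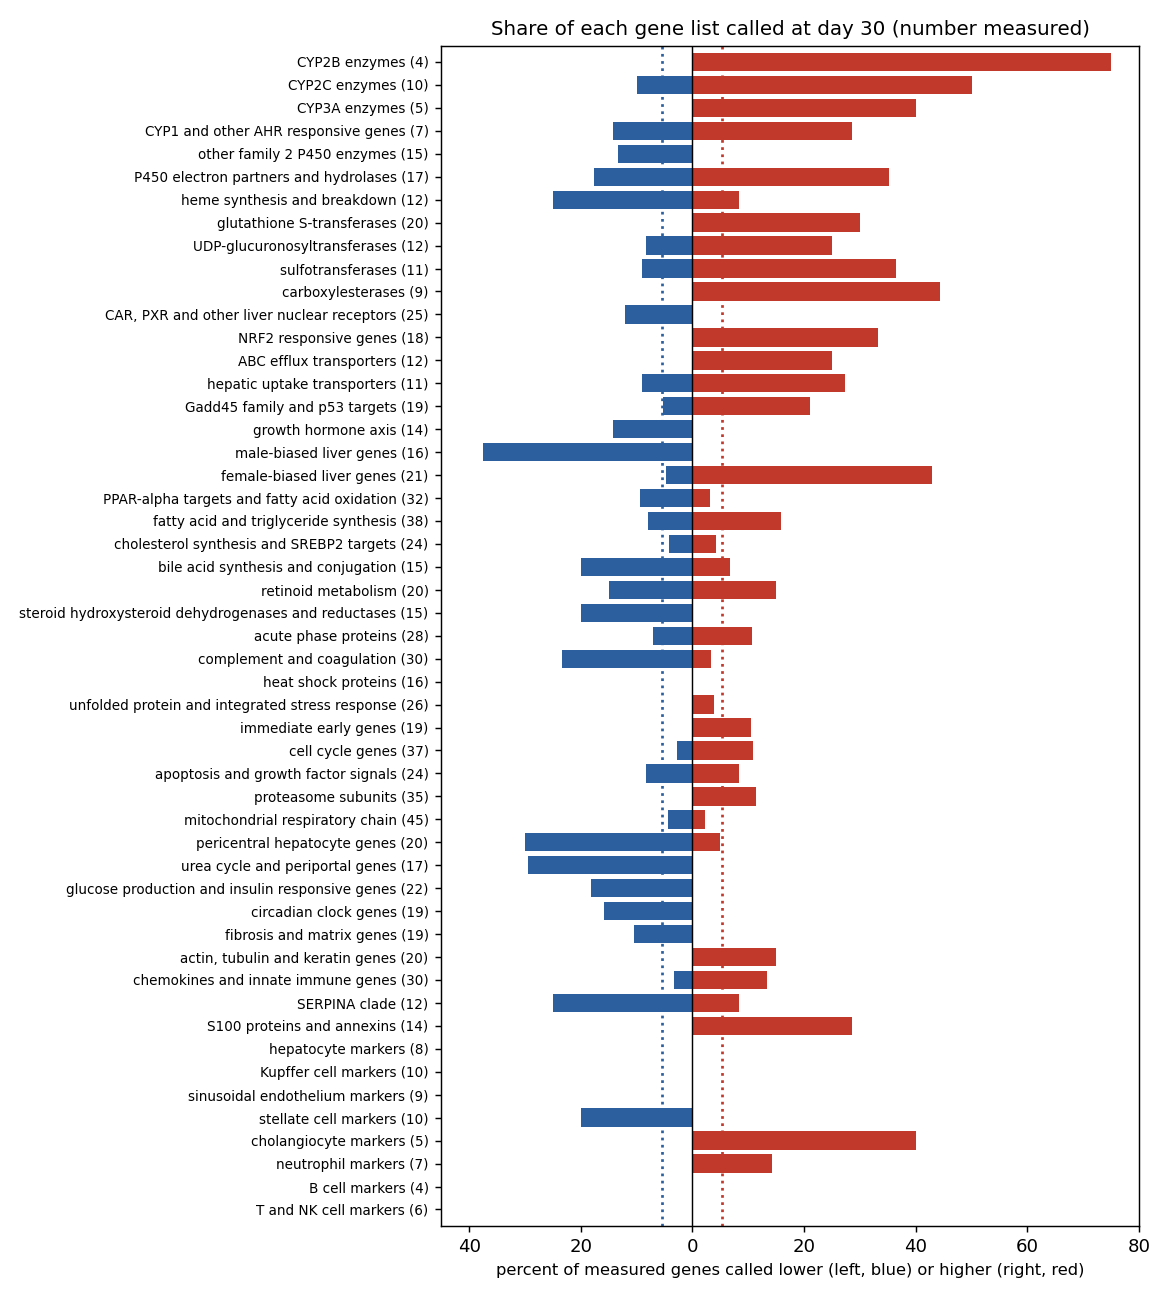
Percent of the measured genes of each list called higher (red, to the right) or lower (blue, to the left), with the number measured in brackets. Dotted lines mark the shares over all 17729 genes tested, 5.29% higher and 5.53% lower. The CYP2B and CYP2C lists reach farthest to the right among lists of drug metabolism, and male-biased and pericentral genes to the left, while heat shock genes have no bar.

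Of 28 acute phase genes 3 rose (10.7%, against 5.29% of all genes tested) and 2 fell (7.14%, against 5.53%), the latter both lost without control replicate 2. Lcn2, a siderophore-binding lipocalin, went from 5.18, 4.32 and 4.00 to 11.37, 9.09 and 10.55, at least 18.2-fold higher (adjusted p = 0.0042), and Orm3, an orosomucoid, from 4.00, 4.40 and 4.00 to 10.12, 8.61 and 9.82, at least 10.3-fold (0.0025). Lcn2 and Orm3 rose from background, whereas Crp, C-reactive protein, rose from 12.23, 12.11 and 12.05 to 12.54, 12.77 and 12.65 (0.52, adjusted p = 0.0036). Saa1, which read 12.63, 9.08 and 10.76 in treated livers and 10.55, 10.77 and 9.50 in controls, was not called (adjusted p = 0.75). Treated replicate 1 was the highest and replicate 2 the lowest treated liver for 19 of the 28 genes each. Control livers also had an order, with replicate 2 the highest control for 18 of the 28 and replicate 3 the lowest for 17. Of 30 complement and coagulation genes 7 fell and 1 rose. The 7 became 3 without control replicate 1, 2 without control replicate 2, 4 without control replicate 3 and 3 without treated replicate 2 or treated replicate 3, and C9 and F11 kept their call with each array left out. C9, the pore-forming component, fell by 0.98 (adjusted p = 0.0017, and 0.085 with the 6 arrays alone) and F11, coagulation factor XI, fell by 1.06 (0.0011).

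S100a8, a calgranulin of neutrophils, read 4.45, 4.83 and 4.86 in controls and 11.95, 12.10 and 5.60 in treated livers. It was called (5.17, adjusted p = 0.011), but treated replicate 3 lay under background, and the call was lost without treated replicate 1 (4.13, 0.069) or treated replicate 2 (4.06, 0.083), and in the fit on 6 arrays (0.14). Its partner S100a9 read 7.53, 5.28 and 5.60 in treated livers and was not called (adjusted p = 0.49), and neither were the neutrophil granule genes Mpo (-0.09, 0.93), Ltf (-0.22, 0.80) and Ngp (-0.16, 0.81).

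Of 30 chemokine and innate immune genes 4 rose (13.3%, against 5.29% of all genes tested) and 1 fell (3.33%, against 5.53%). Ccl9 rose from 10.39, 10.51 and 10.58 to 12.09, 12.01 and 12.19 (1.60 ± 0.18, adjusted p = 9e-07), Tlr2 from 5.62, 5.61 and 5.58 to 7.96, 6.87 and 7.10 (0.00015), and Cxcl9, an interferon-induced chemokine, from 4.12, 4.00 and 4.00 to 8.55, 6.29 and 8.14 (0.0042). Tlr4 was the remaining gene that rose (at least 1.21-fold, 0.002), and was not called with the 6 arrays alone (0.053). Kupffer cell markers had a positive difference in 10 of 10 genes with none called, and their summed intensity ran from 5309 to 6901 in controls and from 6348 to 12008 in treated livers. Treated replicate 1 was the highest treated liver for 9 of those 10 markers and replicate 2 the lowest for 9. Control replicate 2 was the highest control for 7 of the 10. The part of resident macrophages in the immune genes was not tested. B cell markers summed to 384 to 726 in controls and 527 to 1285 in treated livers, with none of 4 called. T and NK cell markers summed to 258 to 307 and 362 to 427, with none of 6 called and Cd3e at 0 on all 6 arrays. Of those 6 markers only 3 had a positive difference, and only 3 were above background on any array.

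Stellate cell markers summed to 6475 to 8862 in controls and 4616 to 5163 in treated livers, and 2 of 10 were called lower, neither kept with each array left out. One was Lrat, which stores retinol (-1.12, adjusted p = 0.029), lost without control replicate 3 (-0.84, 0.17), treated replicate 1 (-1.11, 0.064) or treated replicate 3 (-0.98, 0.11). Fibrosis and matrix genes fell in 2 of 19 (10.5%, against 5.53% of all genes tested). Of 20 retinoid genes 3 rose (15%) and 3 fell (15%), of which 1, Rdh16f2, kept its call with each array left out. The part of stellate cells in those counts was not tested. Among 5 cholangiocyte markers Sox9 rose from 5.55, 5.8 and 5.72 to 7.88, 7.18 and 6.83 (adjusted p = 0.0037), a call lost with the mean of all its probe sets (0.54, 0.24). Epcam rose by 0.44 (adjusted p = 0.012), lost with that mean (0.05, 0.93) and without control replicate 1 (0.37, 0.071), control replicate 3 (0.38, 0.067) or treated replicate 2 (0.34, 0.088), while Krt7 was at 0 on all 6 arrays. Sinusoidal endothelial markers summed to 3890 to 4081 and 3554 to 4139, with none of 9 called.

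Of 19 genes of the Gadd45 family and p53 targets 4 rose (21.1%) and 1 fell, and 15 had a positive difference. Gadd45b, an inducible regulator of stress kinases, went from 4.08, 4.00 and 4.00 to 9.40, 9.95 and 8.38, at least 8.51-fold higher (adjusted p = 3.6e-06). Ephx1, given above, also kept its call with each array left out. Mdm2, the p53 ubiquitin ligase (0.55, adjusted p = 0.036), lost it without control replicate 2 (0.52, 0.093), control replicate 3 (0.51, 0.11), treated replicate 2 (0.42, 0.18) or treated replicate 3 (0.56, 0.074). Fas, a death receptor (0.86, adjusted p = 0.021), lost it without control replicate 1 (0.69, 0.11) or treated replicate 1 (0.61, 0.14). The p53 target Cdkn1a differed by 0.31 (0.75). Hells, a chromatin remodeler of dividing cells, rose from 6.48, 6.64 and 6.15 to 8.37, 8.33 and 8.25 (1.89 ± 0.25, adjusted p = 1.2e-05). In all, 4 of 37 cell cycle genes rose (10.8%, against 5.29% of all genes tested) and 1 fell (2.7%), of which Hells alone kept its call with each array left out. The proliferation markers Mki67 (0.13, adjusted p = 0.96) and Top2a (-0.33, 0.63) were under background in both groups. Myc read 4.82, 5.10 and 4.99 in controls and 7.22, 7.09 and 6.60 in treated livers, without overlap, yet did not pass (2.0, adjusted p = 0.062).

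None of 16 heat shock genes and 1 of 26 genes of the unfolded protein and integrated stress responses was called in either direction, the latter Ern1, the sensor IRE1, by 0.49 (adjusted p = 0.0057), which was 0.08 with the mean of all its probe sets (0.85) and not called with the 6 arrays alone (0.079). Proteasome subunits had a positive difference in 31 of 35 genes (88.6%, against 47.2% of all genes tested), with 4 called. Psma1, a core subunit, rose by 0.71 (adjusted p = 0.0051), was the only one of them to keep its call with each array left out, and was not called with the mean of all its probe sets (0.38, 0.12) or the 6 arrays alone (0.071). The respiratory chain, with 1 of 45 genes higher and 2 lower, lay near the background shares. Bcl2l1, the gene of the survival factor BCL-XL, fell from 9.35, 9.27 and 9.26 to 8.51, 8.54 and 8.64 (-0.73 ± 0.11, adjusted p = 8.8e-05). Nebl, an actin-binding nebulette, rose from 4.02, 4.92 and 4.34 to 9.58, 10.14 and 9.67, at least 12.5-fold (adjusted p = 4.3e-06). Hlf, a clock output factor, fell by 0.97 (adjusted p = 0.0019, and 0.069 with the 6 arrays alone). In all 3 of 19 clock genes fell (15.8%, against 5.53% of all genes tested), and 1 without control replicate 2 or control replicate 3.

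Propiconazole and triadimefon livers at day 30 differed in 692 genes (3.90%), 394 higher (2.22%) and 298 lower (1.68%) with propiconazole. The groups share controls and had unequal doses, so the treated livers were compared directly. The count was 10 when only those 6 arrays were fitted, 423 without propiconazole replicate 3, 450 without triadimefon replicate 1, 415 without triadimefon replicate 3 and 1157 without day 4 propiconazole replicate 2. Cyp2b13 was higher with propiconazole by 3.22 ± 0.56 (adjusted p = 0.00089) and Sult1c2 by 1.69 (0.0032), while Oat was lower by 1.73 (0.0015). These calls held with each array of both groups left out, but not with those 6 arrays alone (adjusted p = 0.13 for Cyp2b13, 0.19 for Sult1c2 and 0.14 for Oat). For Cyp2b10 the difference was 0.23 ± 0.45 (adjusted p = 0.89). Among 12 genes of heme metabolism Cpox, Uros and Blvra were lower with propiconazole, and each call was lost without 1 or more single arrays, Cpox without propiconazole replicate 1 (-0.70, adjusted p = 0.086), propiconazole replicate 3 (-0.88, 0.051) or triadimefon replicate 3 (-0.82, 0.069), Uros without propiconazole replicate 2 (-0.47, 0.073) or triadimefon replicate 3 (-0.71, 0.057), and Blvra without propiconazole replicate 2 (-0.47, 0.21), triadimefon replicate 1 (-0.85, 0.082) or triadimefon replicate 3 (-0.81, 0.11).

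The change at day 30 differed from that at day 4 in 345 genes (1.95%), 126 higher (0.711%) and 219 lower (1.24%). The test was uneven in support: with only the 12 arrays of these groups no gene passed, although 1158 had an unadjusted p under 0.05, and day 4 propiconazole replicate 2 had a Gapdh 3′ excess of 6.39. Without that array the count was 520, and it was 1233 without day 4 propiconazole replicate 1 and 887 without replicate 3. It fell to 229 and 195 without day 4 control replicates 1 and 2, to 206 without day 30 control replicate 2 and to 180 without day 30 propiconazole replicate 3. The times also differed in the Actb 3′ minus 5′ difference, 0.62 to 1.84 on these arrays of day 4 and 0.35 to 0.47 on those of day 30. Its part in the results was not tested. Susd4 changed by -0.72 at day 4 and -4.71 at day 30 (difference -3.99 ± 0.64, adjusted p = 0.0011), Obp2a by -0.37 and -5.55 (difference -5.18 ± 1.09, 0.011), and Avpr1a by 0.00 and -1.61 (difference -1.61, 0.010). Cyp2b13 went from a change of 0.11 at day 4 to 4.06 at day 30 (difference 3.95 ± 0.79, adjusted p = 0.0065). These calls held with each of the 12 arrays left out, but those of Obp2a (adjusted p = 0.058) and Avpr1a (0.12) were lost with values as deposited. For Cyp2b10 the changes were 4.80 and 5.94 (difference 1.14, adjusted p = 0.38) and for Cyp2c55 5.57 and 6.00 (0.42, 0.70).

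**Figure D5:**
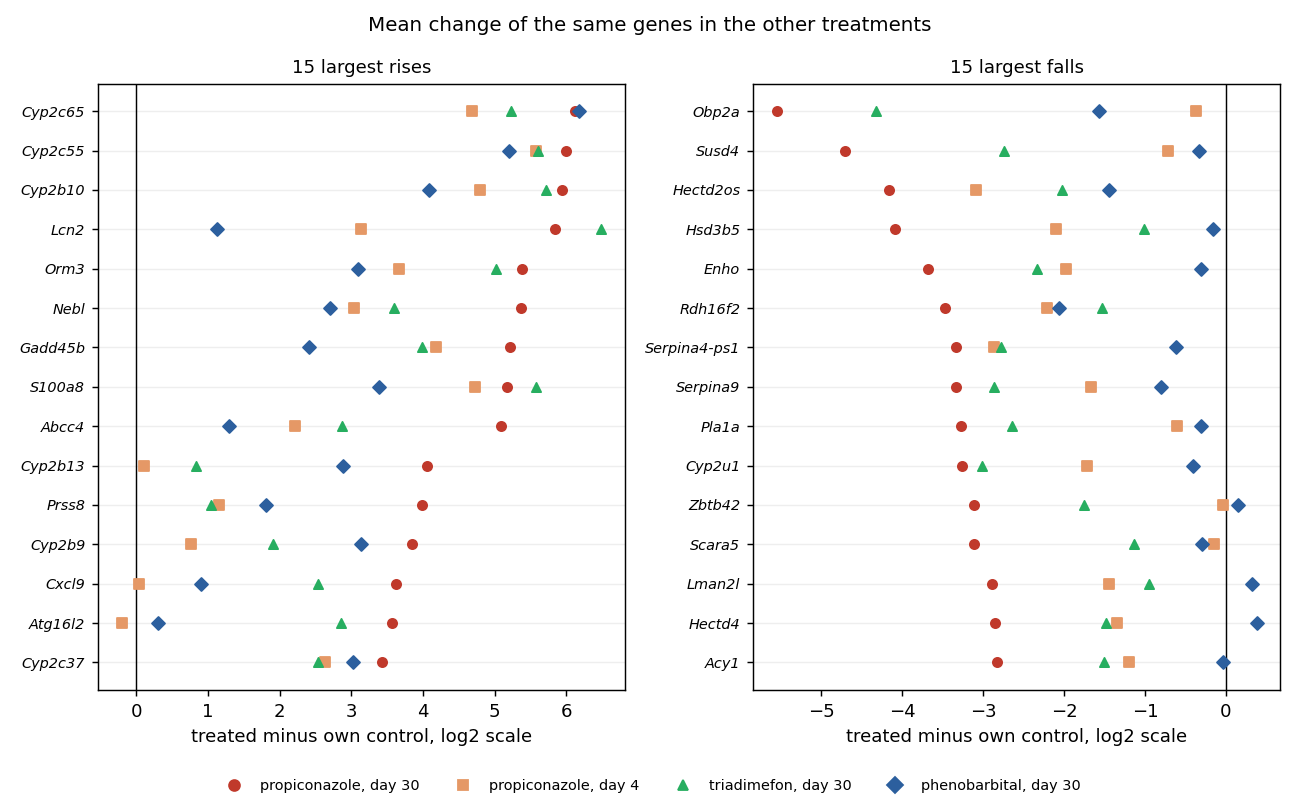
Mean change from own controls on the log2 scale for the 15 largest rises and 15 largest falls at day 30 of propiconazole (red circles), beside propiconazole at day 4 (orange squares), triadimefon at day 30 (green triangles) and phenobarbital at day 30 (blue diamonds). Triadimefon and propiconazole at day 30 share 3 control livers, and the genes were chosen for their red values. For Cyp2c55 and Cyp2c37 the 4 changes lie close together, while for Susd4, Enho, Cyp2u1 and Pla1a phenobarbital lies near 0.

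The change with propiconazole differed from that with phenobarbital in 340 genes (1.92%), 175 of them higher (0.987%) and the rest lower (0.931%). Each compound was set against controls of its own experiment, and doses and experiments differed. The count was 974 with only those groups fitted, 523 without propiconazole replicate 1, 204 without propiconazole replicate 3, 221 without phenobarbital replicate 4 and 770 without day 4 propiconazole replicate 2. Cyp2b10 changed by 5.94 with propiconazole and 4.09 with phenobarbital, a difference of 1.85 ± 0.57 that did not pass (adjusted p = 0.083).

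The pump genes Abcc4 and Abcb1a and several falling genes did differ. Abcc4 rose by 5.09 with propiconazole against 1.30 with phenobarbital (difference 3.79 ± 0.67, adjusted p = 0.0038), and Abcb1a by 1.49 with a difference of 1.51 (0.0093). Elovl6 was higher by 2.01 (0.0098). Susd4 changed by -4.71 against -0.33 (difference -4.38 ± 0.58, 8.4e-05), Enho by -3.68 against -0.31 (difference -3.37 ± 0.70, 0.0097), Cyp2u1 by -3.26 against -0.41 (difference -2.85, 0.0059) and Pla1a by -3.27 against -0.31 (difference -2.95, 0.0094). These calls held with each array of the 4 groups left out and with only those groups fitted. Sult2a2 was higher by 2.73 (adjusted p = 0.017), a call lost without propiconazole replicate 3 (2.18, 0.075).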

How the data were processed

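Frozen livers were profiled with 1 Affymetrix mouse array per animal from biotin-labelled amplified RNA, per the labels' protocols. The authors deposited 1 linear intensity per probe set and array, on scales that differed between arrays, with 21.2% of values below 0. The sources used here name no software for that summary. Intensities of 38 arrays were quantile normalized, floored at 0, and log2(value + 16) was taken with a pseudocount of 16. The 34958 probe sets that platform annotation gives 1 gene symbol were reduced to the brightest per gene, and 465 genes with constant values were left out. Group means were fitted with limma 3.58.1 in R 4.3.3 (intensity trend, two-sided, Benjamini-Hochberg over 17729 genes, called under 0.05), tested on simulated data. Number of animals and background limit precision; intervals from read depth do not apply.

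Of 939 listed genes in 51 lists, 833 were measured. Genes were named where called without overlap and among the 15 that rose or the 15 that fell most, excluding clone-type names, cross-matching probe sets and genes under background in both groups, and, of each list, up to 6 called members with its key genes. The members and lists were chosen with earlier results of these data known. Promoter windows come from RefSeq, GRCm38.p6. The alternatives were values as deposited, median centring, pseudocounts of 4 and 64, genes above background, the mean of all probe sets, no trend, array weights, a replicate block, fits on only the groups compared, and each array left out.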

Additional observations from a re-analysis of the deposited data

Results flagged for a closer look

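For 14 of the genes named by the rule, the change with propiconazole at day 30 differed from that at day 4 by the interaction test of limma over all 38 arrays, with 3 livers in each group. The difference, day 30 change minus day 4 change, was positive for Cyp2b13 (3.95), Atg16l2 (3.77), Ppargc1b (3.5), Cd36 (2.89) and Abcc4 (2.86). It was negative for Obp2a (-5.18), Susd4 (-3.99), Pla1a (-2.66), Alas1 (-2.49), Ddit3 (-2.33), Sqle (-1.74), Avpr1a (-1.61), Cyp51 (-1.38) and Arg1 (-0.38).

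For some of these genes the change at day 4 was about as large as that at day 30 or larger. Ppargc1b, a coactivator of oxidative and lipid genes, lay at the lowest possible level on all 6 arrays of day 30, and its change was -3.5 at day 4. Ddit3, a stress-induced transcription factor, changed by 1.70 at day 4 and differed by -0.63 at day 30 (adjusted p = 0.20). Sqle, an enzyme of sterol synthesis, changed by 1.35 at day 4 and differed by -0.39 at day 30. Cyp51, of the same pathway, had values of about equal size and opposite sign, 0.68 at day 4 and -0.71 at day 30. Alas1 changed by 3.85 at day 4 and 1.36 at day 30.

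Actb 3′ minus 5′ differences were higher on the day 4 propiconazole and control arrays (0.62 to 1.84) than on those of day 30 (0.35 to 0.47). Day 4 propiconazole replicate 2 also has a Gapdh 3′ excess that no other array shows. Without it Arg1 (-0.36, adjusted p = 0.052), Atg16l2 (2.89, 0.068), Cyp51 (-1.07, 0.071), Pla1a (-2.36, 0.063) and Sqle (-1.39, 0.062) lost the call. Avpr1a, Cyp2b13, Ddit3, Obp2a, Ppargc1b and Susd4 kept it with each of the 12 arrays left out. Ppargc1b could not fall from the lowest level at day 30, so its difference restates its day 4 change. Abcc4 lost the call without any of 7 single arrays, and Alas1 and Cd36 without any of 4. With values as deposited Avpr1a (-1.14, adjusted p = 0.12) and Obp2a (-4.39, 0.058) lost it. None passed with only the 12 arrays fitted.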

How the results depend on the processing

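The calls rest on an error shared over 38 arrays, and 3 livers a group and the level of background limit what small changes can show. The count of changed genes, 1917, was 1065 with values as deposited (482 higher, 583 lower) and 541 with only the 6 arrays fitted (282 higher, 259 lower), and median centring gave 608 higher. With 1 array left out it ranged from 1277 to 2803, with 625 to 1279 higher and 652 to 1524 lower. For the 3 differences between treatments or times, the share of genes tested that were called is given, since settings test different numbers of genes. Against triadimefon, 3.90% (692 genes) became 1.55% with values as deposited, 2.12% with median centring, 2.59% with the replicate block, 4.89% (453 genes) above background and 0.0592% (10 genes) with only those arrays, and ranged from 2.34% to 6.54% with 1 array left out. For day 30 minus day 4, 1.95% (345 genes) became 0.526%, 0.519%, 0.869% and 4.17% in the same order, 0.152% with array weights, and 0 with only those arrays, where 1158 genes had an unadjusted p under 0.05 in limma, and ranged from 1.02% to 6.96% with 1 array left out. For phenobarbital, 1.92% (340 genes) became 0.786%, 1.16%, 1.15% and 3.76% in the same order, 3.93% with array weights and 5.57% with only those arrays, and ranged from 1.15% to 4.35% with 1 array left out. The share of higher calls for day 30 minus day 4 was 36.5% as reported, 77.4% as deposited, 53.3% with median centring, 59.3% with array weights and 48.1% without day 4 propiconazole replicate 2. For phenobarbital it was 51.5% as reported, 41.7% as deposited and 33.7% with median centring. Arnt turned from 0.62 to -0.18 with the mean of all probe sets. The cause was not tested, except that fewer arrays give a less certain error by construction. Replicate numbers were not taken to pair the livers. Same-numbered deviations correlated at -0.01, 0.13 and 0.09 and different-numbered ones at -0.19 to 0.11. With 3 livers a group such values cannot exclude shared handling. With the replicate block 1553 genes were called (775 higher, 778 lower). Of 170 named calls, 55 were lost as deposited and 37 with median centring.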

Other observations

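Among the 40 drug metabolism, heme and transport genes that rose, control replicate 3 was the highest control for 30 (75.0%), against 31.3% of all genes tested and 28 of the 73 genes of those lists that were not called. The pattern held for Cyp2b10, Cyp2c55, Gstt3, Cyp2c37 and Gstm2. Leaving out the highest control enlarges a rise by construction, and without that liver the changes of these genes were 6.91, 6.55, 3.85, 3.90 and 2.57. The labels give no reason for it, and it was not tested further.

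Treated replicate 1 was the highest treated liver for 9 of 10 Kupffer cell markers and 19 of 28 acute phase genes, against 32.4% of all genes tested, and replicate 2 the lowest for the same numbers. Mt1, a metallothionein, followed the same order with 11.57, 7.60 and 10.08 in treated replicates 1 to 3 and was not called (adjusted p = 1.0). Such an order was not limited to treated livers. Control replicate 2 was the highest control for 7 of the 10 Kupffer cell markers and 18 of the 28 acute phase genes, against 30.8% of all genes tested.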
